A study of Mus musculus with 11 samples.

Results

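The genes described here are 55 homeobox and related patterning transcription factors, chosen by symbol as homeodomain, paired and ZEB factors and compared across 3 sensory nuclei of the newborn mouse thalamus. All 55 were found among the 54752 gene identifiers of the count tables. They comprise 10 LIM homeodomain, 6 Iroquois, 10 POU, 4 Dlx, 8 TALE (Meis, Pbx and Pknox), 2 Nkx, 3 CUT and SATB, 5 zinc finger homeobox (Zfhx and Zeb) and 3 Pax and Barhl genes, and also Otx1, Otx2, Six3 and Six6. No measured value entered the choice, but it was made with earlier results of these data known. The nuclei were the dorsolateral geniculate (dLG, the visual relay, 4 libraries), the ventral posteromedial (VPM, the relay for touch on the face, 4 libraries) and the ventral medial geniculate (MGv, the auditory relay, 3 libraries). All groups shared the strain (ICR/CD-1), the age (postnatal day 0) and the genotype Gbx2CreER-IRES-EGFP/+::R26lsl-tdTomato/+. In these mice, tamoxifen lets a Cre recombinase made from the Gbx2 locus switch on the red protein tdTomato, so that the sorted cells were those in which Gbx2 had been active when the drug was given. Each library held neurons from 4 pooled brains.

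Homeobox genes encode proteins that bind DNA through the homeodomain, a fold of 3 helices of which the third lies in the major groove and reads the bases. In the early forebrain their overlapping domains divide the diencephalon into territories, and after cell birth several of them hold the identity of neuron types. Meis, Pbx and Pknox proteins belong to the TALE class, whose homeodomain has extra residues in a loop. They bind DNA in pairs with each other and with other homeodomain proteins. POU proteins carry a second DNA-binding domain beside the homeodomain, and the ZEB and ZFHX proteins carry zinc fingers, with which ZEB1 represses genes.

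The members' levels spanned from no reads to over 100 TPM (counts divided by exon length and scaled to the library, the unit used to compare genes). Mean TPM over the 11 libraries was at least 10 for 8 members, between 1 and 10 for 9 members and under 1 for 38 members. The highest were Meis3 at 127 TPM, Pbx4 at 60.7 TPM and Pou2f2 at 49.7 TPM, which together made up 66.3% of the TPM summed over all members. Zfhx3 (21.8 TPM), Pou2f1 (16.1 TPM), Zfhx4 (15.5 TPM), Pknox2 (14.5 TPM) and Pknox1 (10.3 TPM) came next. These 8 genes belong to the TALE, POU and ZFHX families. Below them, 33 members were at or under 1 CPM (library-scaled counts with TMM factors, the unit used to compare libraries) in every library, among them every Iroquois, Dlx and Nkx gene, Otx1, Otx2, Six3 and Six6. Irx6, Pou4f2 and Six6 had no read in any library, and a floor of 3 counts allows 0.129 to 0.292 CPM depending on the library.

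**Figure D1:**
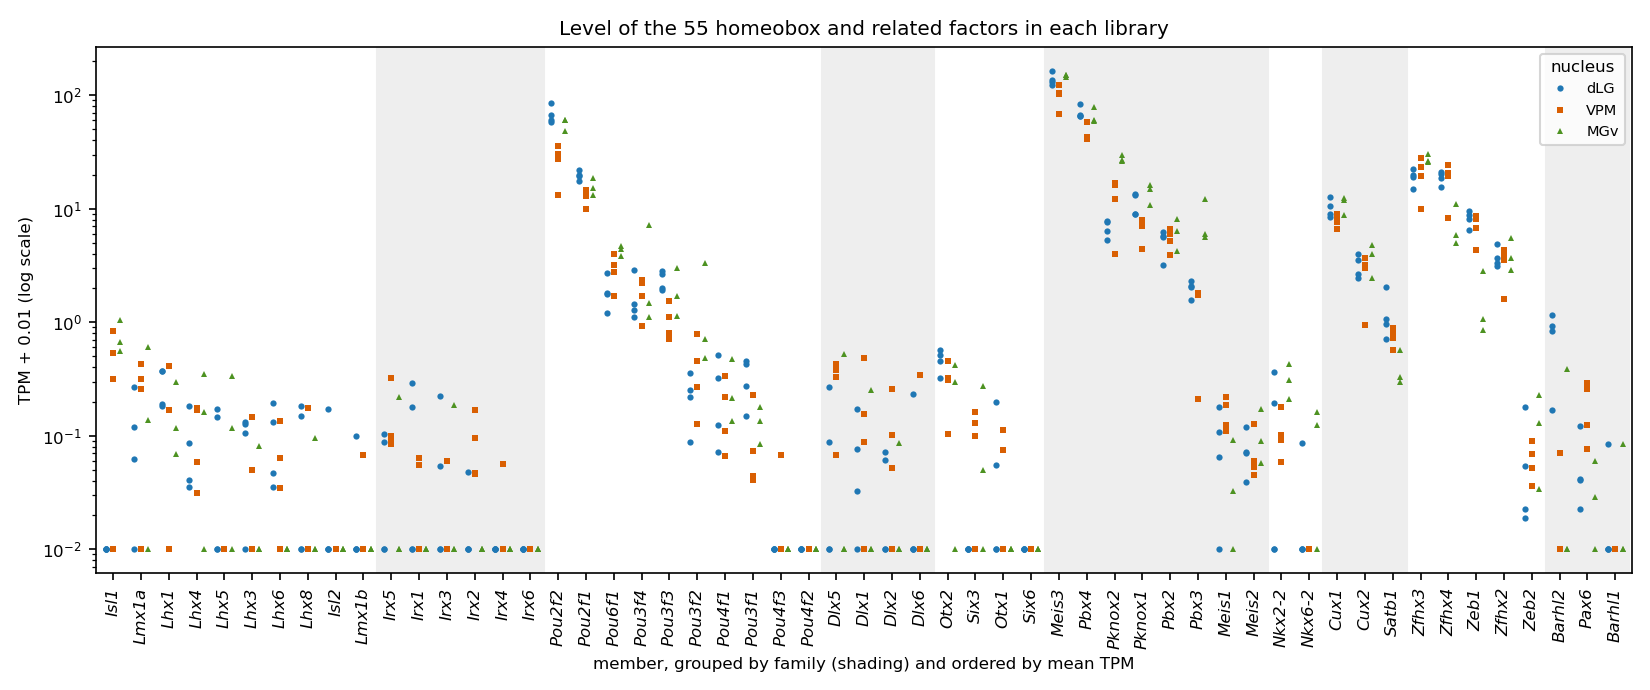
The plot shows TPM + 0.01 on a log axis for each of the 55 members, with 1 point per library and the nucleus given by colour and shape; shading separates families, and points at 0.01 are libraries with no read. Meis3, Pbx4 and Pou2f2 stand highest, and most members lie below 1 TPM. TPM values were not TMM-scaled, and VPM replicate 3, whose TMM factor was 0.854, lies low for many genes on this scale.

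Total counts were 15.9 to 22.7 M in dLG, 18.9 to 23.6 M in VPM and 10.2 to 13.2 M in MGv. The 6 pan-neuronal markers summed to between 8425 and 11123 CPM in every library. In edgeR's test, Rbfox3 was higher in MGv (adjusted p = 0.00597 against dLG and 0.00159 against VPM). Map2 was higher in MGv than in VPM (0.0994), and Snap25 was highest in VPM (0.0107 and 0.00231). The relay neuron marker Slc17a6 was at 414 CPM or above in dLG and VPM and at 278 CPM or above in MGv, where it was lower (0.0281 and 0.0256). All 8 relay markers differed between dLG and MGv, 5 being higher in dLG and 3 in MGv. Defining markers of other cells were close to 0. The vesicular GABA transporter Slc32a1 reached at most 0.0463 CPM, and the oligodendrocyte factor Sox10 reached at most 0.0476 CPM. The astrocyte filament gene Gfap did not exceed 0.0865 CPM. Known from earlier results to stand apart were 3 libraries, namely dLG replicate 2, VPM replicate 3 and MGv replicate 1. They had 3.05 to 5.56 CPM of the chaperone gene Hspa8 against 159 to 581 CPM in the other 8 libraries, so results that rest on them are also given without them. One dLG library held 347 CPM of the globin gene Hbb-bs. In bulk samples such as these, fewer cells with a transcript and less of it per cell cannot be told apart.

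The comparison between nuclei asked which members differ between relay neurons of different senses. Of the 55 members, 26 passed the filter on low counts and were tested with edgeR's quasi-likelihood test over 15907 genes, with an adjusted p under 0.1 as the threshold. The contrast of dLG with VPM was passed by 9 of the 26 members (34.6%), and by 10.7% of all genes tested. The dLG level was the higher for 6 of them (4.97% of all genes) and the VPM level for 3 (5.74%). The contrast of dLG with MGv was passed by 8 members (30.8%), and by 16.1% of all genes. The dLG level was the higher for 3 of them (8.61% of all genes) and the MGv level for 5 (7.49%). The contrast of VPM with MGv was passed by 9 members (34.6%), and by 19% of all genes. The VPM level was the higher for 4 of them (10.4% of all genes) and the MGv level for 5 (8.56%). In these contrasts the absolute log2 fold change had a median of 0.45, 0.92 and 0.74 among the members tested and of 0.27, 0.32 and 0.36 among all genes tested. The libraries of the nuclei did not overlap for 6, 9 and 11 members respectively, where 14.6%, 23.8% and 25.1% of all genes did not overlap. The 26 tested members include genes that passed the filter through a single nucleus, so these counts are a description. In all, 15 members differed in at least 1 contrast, as did 28.3% of the genes tested. The contrasts share libraries and are not independent of each other. The count for dLG against VPM depended on single libraries, and was 2 without dLG replicate 1 (7.69% of the members tested there, with 7.38% of all genes). It was 5 without dLG replicate 3 (20%, with 8.44% of all genes), 3 without dLG replicate 4 (12.5%, with 7.46%) and 3 without VPM replicate 1 (12%, with 7.01%). In the 8 libraries outside the 3 that stand apart, 11, 11 and 9 members passed in the 3 contrasts, with 16.1%, 19.8% and 19% of all genes.

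A level in 1 nucleus that differed from both others was a low one for 9 members and a high one for 2 of the 26 tested, with 9.38% and 8.12% of all genes tested. The number of low patterns was 4 without VPM replicate 1 and 5 without dLG replicate 1 (7.23% and 6.97% of all genes), and that of high patterns was 4 without MGv replicate 1 (6.3% of all genes). Pbx3 and Pknox2 were higher in MGv than in both other nuclei, with both contrasts passed, and no member was highest in this sense in dLG or VPM. Isl1, Pou6f1 and Pknox2 were lowest in dLG, Pou2f2, Meis3 and Pknox1 were lowest in VPM, and Satb1, Zfhx4 and Zeb1 were lowest in MGv. For Isl1 this is a description, since it had no read in dLG and passed the filter only through the other nuclei. Pknox2 stands in both groups because all 3 of its contrasts passed. The difference between these numbers was not tested.

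**Figure D2:**
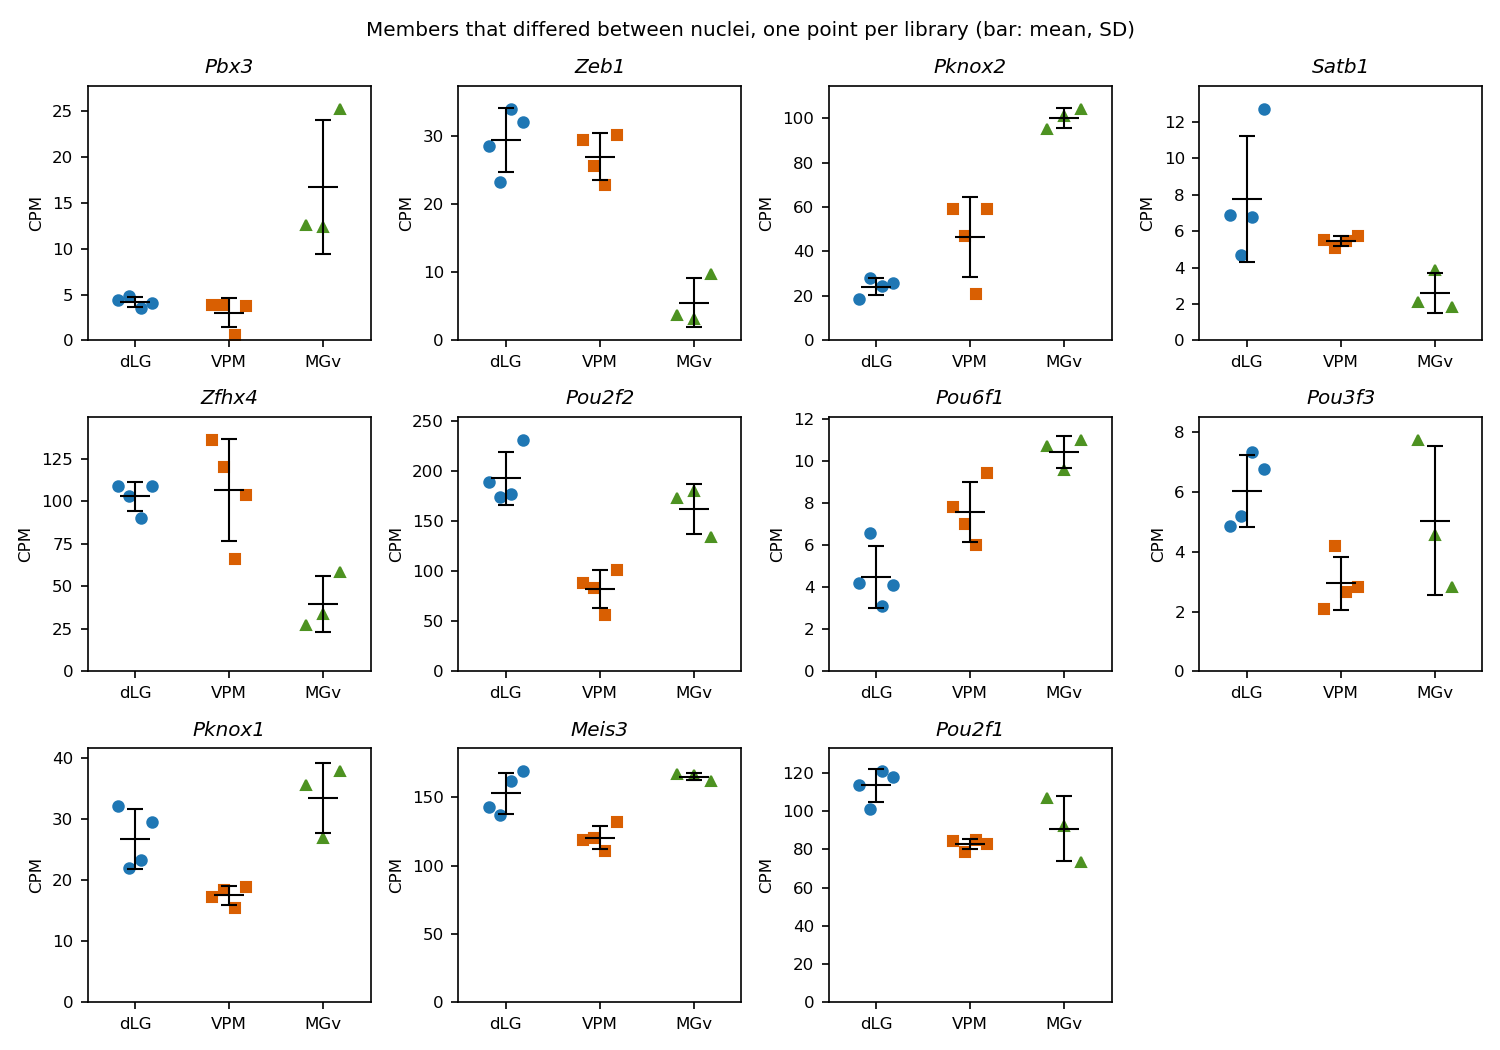
Each panel shows the TMM-scaled CPM of a member in the 11 libraries on a linear axis from 0, with a horizontal bar at the mean and whiskers of 1 SD (n = 4 for dLG and VPM, n = 3 for MGv). The panels hold the 11 members that differed in at least 1 contrast and reached a mean of 5 CPM in some nucleus. Pknox2 rises from dLG through VPM to MGv, and Zeb1 and Zfhx4 are low in all 3 MGv libraries.

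Of the 8 TALE genes, 4 passed in at least 1 contrast (Pknox2, Pknox1, Pbx3 and Meis3), as did 28.3% of all genes tested. Their homeobox coding sequences are shown because close relatives in this class moved differently, and because their similarity bears on whether short reads can separate them. Sequences are in coding orientation from GENCODE transcripts of build GRCm38, and capitals mark the 42 bases around the third, DNA-reading helix; each genomic span also holds introns. The homeobox of Pknox1 lies at chr17:31599569-31603223 (plus strand, exons 8 to 10 of 11), that of Pknox2 at chr9:36894462-36909703 (minus strand, exons 10 to 12 of 13) and that of Meis3 at chr7:16182394-16184074 (plus strand, exons 8 to 10 of 13). The homeobox of Pbx3 lies at chr2:34178295-34213256 (minus strand, exons 4 to 6 of 9) and that of Pbx4 at chr8:69865010-69870076 (plus strand, exons 4 to 6 of 8).
Pknox1: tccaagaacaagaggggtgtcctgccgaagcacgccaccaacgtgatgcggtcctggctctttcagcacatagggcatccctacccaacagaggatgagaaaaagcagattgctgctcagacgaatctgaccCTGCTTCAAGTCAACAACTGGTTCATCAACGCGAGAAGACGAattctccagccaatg
Pknox2: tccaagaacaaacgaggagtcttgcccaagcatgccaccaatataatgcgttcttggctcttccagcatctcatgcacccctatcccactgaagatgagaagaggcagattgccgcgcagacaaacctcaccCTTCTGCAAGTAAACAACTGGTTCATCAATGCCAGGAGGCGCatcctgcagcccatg
Meis3: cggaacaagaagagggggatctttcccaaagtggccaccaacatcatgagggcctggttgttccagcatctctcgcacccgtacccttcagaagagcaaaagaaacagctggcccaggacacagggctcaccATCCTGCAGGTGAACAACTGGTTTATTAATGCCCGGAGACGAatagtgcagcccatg
Pbx3: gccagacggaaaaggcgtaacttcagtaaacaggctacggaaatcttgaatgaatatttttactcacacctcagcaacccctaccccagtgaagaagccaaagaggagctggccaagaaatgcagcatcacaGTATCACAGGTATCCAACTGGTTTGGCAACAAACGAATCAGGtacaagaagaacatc
Pbx4: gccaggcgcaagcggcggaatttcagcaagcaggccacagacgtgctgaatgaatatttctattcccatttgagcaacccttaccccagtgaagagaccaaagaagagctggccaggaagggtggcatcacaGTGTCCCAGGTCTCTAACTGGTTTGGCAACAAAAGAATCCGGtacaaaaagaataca
Over 189 bases, Pknox1 and Pknox2 were identical at 78.3%, with 8 differences in the capitals, and Pbx3 and Pbx4 at 79.4%, with 6 differences there. Meis3 was identical with Pknox1 at 66.1% and with Pbx3 at 52.4%. Pknox2, Meis3, Pbx3 and Pbx4 shared no stretch of 50 bases, the length of the reads, with another gene's transcripts. Pknox1 shared 1.5% of such stretches, with an antisense transcript.

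Pknox2 (also called Prep2, a partner of Pbx proteins) was about 4 times as high in MGv as in dLG, with VPM between them. Its CPM values were 18.8, 28.0, 24.3 and 25.8 in the dLG libraries. They were 59.0, 46.8, 21 and 59.0 in VPM and 95, 101 and 104 in MGv. The MGv libraries were above all others, and the VPM libraries were above dLG except VPM replicate 3, which lay inside the dLG range. The log2 fold change of dLG against MGv was -2.04 ± 0.27 (SE), adjusted p = 0.000233. It was -1.1 ± 0.27 for VPM against MGv (adjusted p = 0.0155) and -0.94 ± 0.25 for dLG against VPM (adjusted p = 0.0376). The last difference did not pass without dLG replicate 1, VPM replicate 1 or VPM replicate 4 (adjusted p 0.101 to 0.114). In the 8 libraries outside the 3 that stand apart it was -1.26 ± 0.16 (adjusted p = 0.000529). Without VPM replicate 3 alone it was -1.17 ± 0.15 (adjusted p = 0.000267).

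Its close relative Pknox1 (Prep1) was lowest in VPM. Its CPM values were 32.1, 21.9, 23.3 and 29.5 in dLG, 17.2, 18.3, 15.5 and 18.9 in VPM, and 35.5, 26.9 and 37.8 in MGv. Every VPM library lay below every dLG and MGv library, and dLG and MGv overlapped. VPM was lower than MGv by a log2 fold change of -0.93 ± 0.18 (SE, adjusted p = 0.00449). dLG was higher than VPM by 0.61 ± 0.17 on the log2 scale (adjusted p = 0.046), a call lost without dLG replicate 1, dLG replicate 4 or VPM replicate 1 (adjusted p 0.125 to 0.163). dLG and MGv differed by -0.32 ± 0.18, which did not pass (adjusted p = 0.316).

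Pbx3, a TALE protein that pairs with Meis and Pknox proteins, was several times higher in MGv than elsewhere. It measured 4.38, 4.86, 3.54 and 4.06 CPM in dLG. In VPM it measured 3.89, 3.89, 0.62 and 3.76 CPM, and in MGv 12.6, 12.4 and 25.2 CPM. The MGv libraries lay above all others and MGv replicate 3 stood at about double the level of the other MGv libraries, while VPM replicate 3 was the lowest of all 11. The log2 fold change was -1.99 ± 0.44 (SE) for dLG against MGv (adjusted p = 0.00863) and -2.44 ± 0.45 for VPM against MGv (adjusted p = 0.00276). The dLG and VPM levels differed by 0.46 ± 0.42, which did not pass (adjusted p = 0.617).

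Meis3, the member with the highest TPM, differed little in size but with a small spread. It measured 143, 137, 162 and 169 CPM in dLG, 119, 120, 111 and 132 CPM in VPM and 167, 166 and 162 CPM in MGv. All VPM libraries were below all others. VPM against MGv gave a log2 fold change of -0.45 ± 0.12 (SE, adjusted p = 0.024), a call kept whichever library was left out but lost with no filter on low counts (adjusted p = 0.127). The difference of 0.34 ± 0.11 between dLG and VPM (adjusted p = 0.0861) was lost in 8 of the 11 fits that left out a library (adjusted p 0.103 to 0.259 there); only leaving out dLG replicate 2, VPM replicate 3 or VPM replicate 4 kept it.

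Pbx4, the second highest member by TPM, did not pass in any contrast, and a single library decided this. It measured 49.9, 64.7, 56.0 and 47.9 CPM in dLG, 32.4, 35.2, 66.2 and 31.6 CPM in VPM and 60.7, 47.9 and 45.4 CPM in MGv. On this TMM-scaled measure VPM replicate 3 was the highest of all libraries, and the other 3 VPM libraries were the lowest. By TPM, which is not TMM-scaled, VPM replicate 3 was at 58.4. That is below the dLG libraries (65.6 to 83.7 TPM) and the MGv libraries (59.5 to 79.1 TPM). With all libraries the log2 fold change of dLG against VPM was 0.4 ± 0.22 (SE, adjusted p = 0.34), and without VPM replicate 3 it was 0.73 ± 0.15 (adjusted p = 0.00776). For VPM against MGv the value went from -0.32 ± 0.24 (adjusted p = 0.435) to -0.64 ± 0.16 (adjusted p = 0.0177). In the 8 libraries outside the 3 that stand apart, both differences passed as well (adjusted p = 0.00759 and 0.0344). With a covariate for those 3 libraries, dLG against VPM passed at 0.46 ± 0.14 (adjusted p = 0.0527). VPM against MGv did not pass there, at -0.31 ± 0.15 (adjusted p = 0.169). Summed over the 8 TALE genes, the level was 256 to 284 CPM in dLG, 222 to 253 CPM in VPM and 360 to 384 CPM in MGv. Of the remaining TALE genes, Pbx2 was at 4.36 to 10 CPM with no difference that passed, Meis1 was under 1 CPM in every library, and Meis2 was not tested.

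The POU genes were led by Pou2f2 and Pou2f1, which encode the octamer-binding proteins OCT2 and OCT1. Their homeoboxes lie at chr7:25096953-25097207 (minus strand, exons 10 and 11 of 15) and chr1:165894971-165896502 (minus strand, exons 11 and 12 of 17) and are shown, with the capitals as before, because this pair shared the direction dLG over VPM but not the size of the difference.
Pou2f2: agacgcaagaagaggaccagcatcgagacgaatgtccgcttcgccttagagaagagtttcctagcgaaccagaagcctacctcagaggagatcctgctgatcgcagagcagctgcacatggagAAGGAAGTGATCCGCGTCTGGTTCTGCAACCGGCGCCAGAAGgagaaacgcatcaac
Pou2f1: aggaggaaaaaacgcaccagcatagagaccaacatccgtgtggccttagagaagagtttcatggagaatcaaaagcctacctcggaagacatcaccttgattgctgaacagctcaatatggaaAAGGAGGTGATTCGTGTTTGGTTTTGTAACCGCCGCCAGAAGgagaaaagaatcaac
Of their 180 bases, 76.7% were identical, with 7 differences in the capitals. Pou2f2 shared 0.328% of its stretches of 50 bases with other genes. For Pou2f1 the share was 17%, mostly with Cd247 on the opposite strand, whose exons overlap 18.1% of its exon bases; because the counting is not stated to use strand, reads there cannot be assigned to one or the other.

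Pou2f2 was less abundant in VPM than in both other nuclei. Its CPM values were 189, 174, 177 and 231 in dLG. They were 88.0, 83.3, 56.2 and 101 in VPM and 173, 180 and 134 in MGv. Every VPM library was below every other library, and dLG and MGv overlapped. The log2 fold change was 1.23 ± 0.18 (SE) for dLG against VPM (adjusted p = 0.000625) and -0.98 ± 0.19 for VPM against MGv (adjusted p = 0.00334), and both calls held whichever library was left out. dLG against MGv gave 0.25 ± 0.19 (adjusted p = 0.472).

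Pou2f1 measured 114, 101, 121 and 118 CPM in dLG, 84.2, 78.8, 85.2 and 83.1 CPM in VPM and 107, 92.2 and 73.2 CPM in MGv. The dLG libraries were all above the VPM libraries, and MGv spread across both. dLG exceeded VPM by 0.45 ± 0.13 on the log2 scale (SE, adjusted p = 0.049). This call was lost when dLG replicate 1, 3 or 4 or VPM replicate 1 or 2 was left out (adjusted p 0.121 to 0.141). dLG against MGv gave 0.32 ± 0.14 (adjusted p = 0.178), and 0.33 ± 0.14 with a covariate for the 3 libraries that stand apart (adjusted p = 0.128). In the other 8 libraries alone it was 0.5 ± 0.13 and passed (adjusted p = 0.0285).

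Pou6f1, a POU factor of neurons, was lowest in dLG. It measured 4.2, 6.57, 3.11 and 4.1 CPM in dLG, 7.83, 7.01, 6.02 and 9.42 CPM in VPM and 10.7, 9.57 and 11 CPM in MGv. The MGv libraries were the highest, and VPM overlapped dLG only through VPM replicate 3 and dLG replicate 2. dLG was below MGv by a log2 fold change of -1.21 ± 0.27 (SE, adjusted p = 0.00846). VPM against MGv gave -0.46 ± 0.26, which did not pass (adjusted p = 0.289). The difference of dLG from VPM, -0.75 ± 0.25 (adjusted p = 0.093), was kept only without dLG replicate 2 or VPM replicate 3 among the 11 fits that left out a library (adjusted p 0.103 to 0.21 in the other 9). In the 8 libraries outside the 3 that stand apart it was -1.09 ± 0.23 (adjusted p = 0.013).

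Pou3f3 (BRN1, a factor of the developing forebrain) measured 4.87, 5.2, 7.35 and 6.78 CPM in dLG, 2.09, 4.2, 2.67 and 2.81 CPM in VPM and 7.74, 4.56 and 2.82 CPM in MGv. All dLG libraries were above VPM, and MGv spread over both. The log2 fold change of dLG against VPM was 1.04 ± 0.33 (SE, adjusted p = 0.0752), and it did not pass without dLG replicate 1, 3 or 4 or VPM replicate 1, 3 or 4 (adjusted p 0.106 to 0.21). Pantr1, a noncoding gene next to Pou3f3, went the same way, with means of 13.3 ± 2.43 CPM for dLG, 7.28 ± 1.45 CPM for VPM and 12.5 ± 3.44 CPM for MGv (SD; n = 4, 4 and 3). For it, dLG against VPM gave 0.87 ± 0.22 (SE, adjusted p = 0.0302) and VPM against MGv -0.78 ± 0.24 (adjusted p = 0.0471). Both of these calls were lost without VPM replicate 1 (adjusted p = 0.111 and 0.207), and the latter also without MGv replicate 2 (adjusted p = 0.127). Pantr1 was the only one of 12 noncoding neighbours of members to pass the filter.

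The 3 genes lowest in VPM, namely Pou2f2, Meis3 and Pknox1, shared that direction with part of a list of genes taken as markers of cell dissociation. Of the 9 genes of that list, 4 were lower in VPM than in dLG (4.97% of all genes) and 5 were lower than in MGv (8.56%). These were Fos, Fosb, Junb and Egr1 in both contrasts, and Jun against MGv only. Atf3, Hspa1a, Hspa1b and Hspa8 did not pass in any contrast. The summed level of the 9 genes was 549 to 988 CPM in dLG, 257 to 640 CPM in VPM and 603 to 940 CPM in MGv, and none was at 0 throughout. This sum includes Hspa8, at 3.05 to 5.56 CPM in the 3 libraries that stand apart and 159 to 581 CPM in the others. The ranges therefore also carry that difference between libraries. Fos, an immediate early gene, was at 165 to 296 CPM in dLG, 65.3 to 100 CPM in VPM and 223 to 326 CPM in MGv. Whether the levels of these genes reflect dissociation was not tested, and neither was their part in the members' differences.

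Of the 5 zinc finger homeobox genes, 2 (Zeb1 and Zfhx4) were low in MGv, and the other 3 did not pass in any contrast. Of all genes tested, 28.3% passed in at least 1 contrast. The summed level of the family overlapped between nuclei, at 264 to 311 CPM in dLG, 211 to 399 CPM in VPM and 245 to 318 CPM in MGv. Zeb1, a repressor known from epithelial-mesenchymal transition and from the timing of neuronal differentiation, measured 28.6, 23.3, 34 and 32.1 CPM in dLG. It measured 29.4, 25.7, 22.8 and 30.2 CPM in VPM and 3.76, 3.16 and 9.72 CPM in MGv. The dLG and VPM ranges lay on top of each other, and the highest MGv library was below them. The log2 fold change against MGv was 2.42 ± 0.33 (SE) for dLG (adjusted p = 0.000267) and 2.3 ± 0.33 for VPM (adjusted p = 0.000394). dLG against VPM gave 0.13 ± 0.27 (adjusted p = 0.863).

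Zfhx4, a large protein with many zinc fingers and several homeodomains, showed the same shape at a higher level. It measured 109, 103, 90.5 and 109 CPM in dLG, 136, 120, 66.2 and 104 CPM in VPM and 27.3, 33.6 and 58.4 CPM in MGv. All MGv libraries were below all others, with VPM replicate 3 and MGv replicate 3 the nearest. dLG exceeded MGv by a log2 fold change of 1.37 ± 0.27 (SE, adjusted p = 0.00359) and VPM exceeded MGv by 1.43 ± 0.27 (adjusted p = 0.00308). Its relative Zfhx3 leaned the other way, at 117 to 164 CPM in dLG, 107 to 209 CPM in VPM and 189 to 215 CPM in MGv. For dLG against MGv its value of -0.53 ± 0.2 just missed the threshold (adjusted p = 0.103), and in the 8 libraries outside the 3 that stand apart it was -0.67 ± 0.16 (adjusted p = 0.0178). Zfhx2, of which 17% of 50-base stretches occur in other genes, and Zeb2, which was under 2 CPM in every library, did not pass in any contrast.

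**Figure D3:**
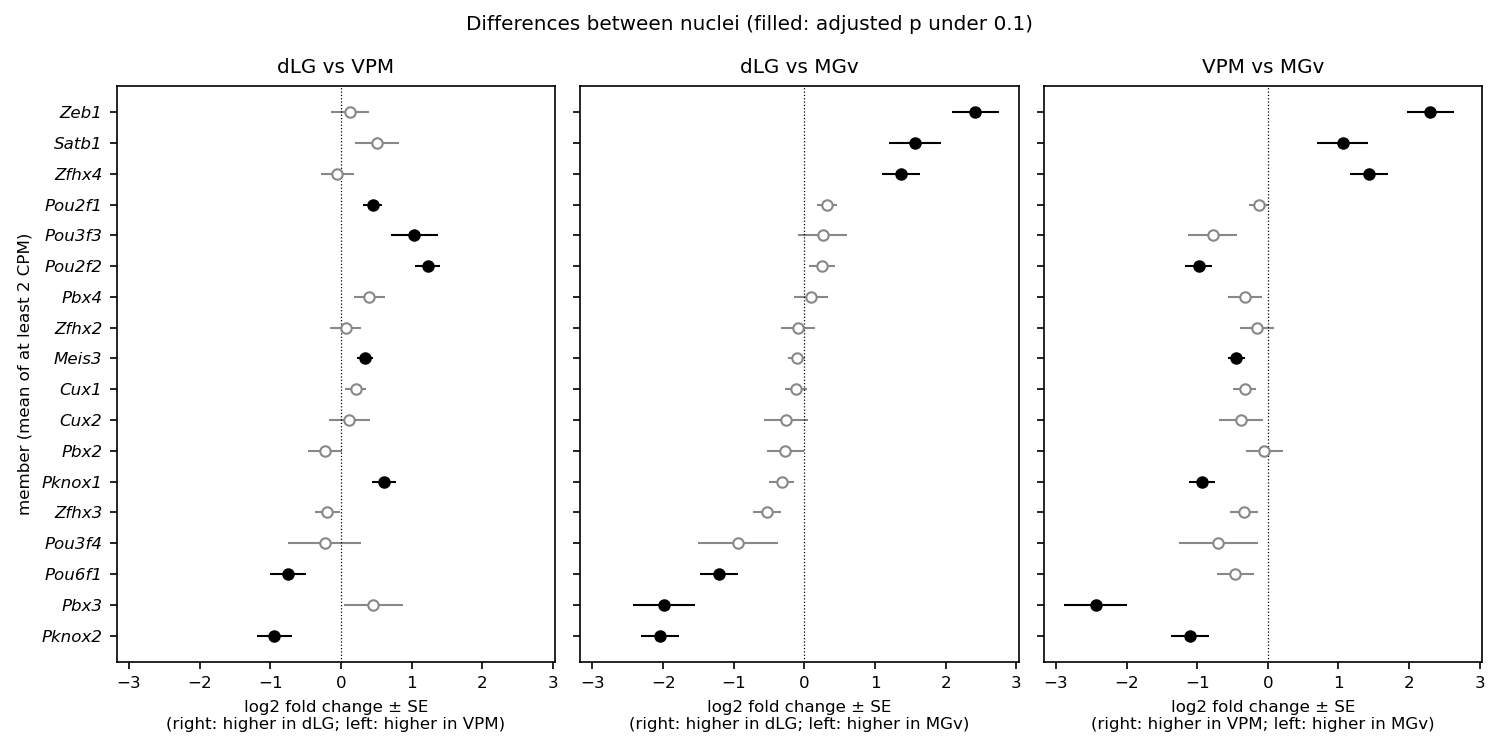
Points are log2 fold changes with whiskers of 1 SE from edgeR's quasi-likelihood fit for the 18 members with a mean of at least 2 CPM over the 11 libraries, with a panel for each contrast; filled points passed an adjusted p of 0.1. Zeb1, Satb1 and Zfhx4 lie to the right in both contrasts with MGv, and Pbx3 and Pknox2 lie to the left.

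Satb1, a chromatin organiser with a CUT-type and a homeodomain, was also lowest in MGv. It measured 6.88, 4.68, 6.76 and 12.7 CPM in dLG, 5.52, 5.06, 5.46 and 5.75 CPM in VPM and 2.1, 3.86 and 1.85 CPM in MGv. The MGv libraries were below all others. The log2 fold change was 1.57 ± 0.37 (SE) for dLG against MGv (adjusted p = 0.0116). It was 1.06 ± 0.36 for VPM against MGv (adjusted p = 0.0709), and this call was lost in the 8 libraries outside the 3 that stand apart and without MGv replicate 1 or 3 or VPM replicate 1, 2 or 4 (adjusted p 0.109 to 0.218 on leaving out 1 library). Cux1 (55.8 to 88.3 CPM) and Cux2 (4.84 to 16.1 CPM), CUT-type factors best known from upper cortical layers, did not pass in any contrast.

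Some markers of other cells also differed between MGv and the other nuclei, in both directions. The 6 astrocyte markers summed to 5.58 to 31.3 CPM in dLG, 40.5 to 53.5 CPM in VPM and 64.2 to 115 CPM in MGv. Of the 5 that were tested, 2 were higher in MGv than in dLG (7.49% of all genes) and 2 were higher in MGv than in VPM (8.56%). Both were led by the glutamate transporter Slc1a3 at 6.35 ± 7.83 CPM in dLG, 7.15 ± 3.25 CPM in VPM and 72.5 ± 23.8 CPM in MGv (SD, n = 4, 4 and 3). The astrocyte markers did not move together. Aqp4 also had its highest mean in MGv (0.548, 0.122 and 1.01 CPM in dLG, VPM and MGv). Aldoc had its highest mean in VPM (6, 34.5 and 18 CPM), above dLG (adjusted p = 0.00103) but not passing against MGv (adjusted p = 0.144). Aldh1l1 and Gja1 also had their highest mean in VPM, with no contrast passed. The 5 endothelial markers, relevant to Zeb1, which endothelial cells also express, summed to 2.36 to 6.35 CPM in dLG, 2.67 to 6.67 CPM in VPM and 0.292 to 2.28 CPM in MGv, and their defining gene Cldn5 did not exceed 0.239 CPM. They moved in different directions. Tek was lowest in MGv (3.63, 1.58 and 0.0878 CPM in dLG, VPM and MGv, adjusted p = 0.00107 against dLG and 0.00707 against VPM). Kdr was instead lowest in dLG (0.0718, 2.1 and 0.706 CPM, adjusted p = 0.005 against VPM and 0.0479 against MGv). Flt1 was higher in VPM than in dLG (adjusted p = 0.0747). The cortical neuron markers summed to at most 5.15 CPM in any library. Among them, Neurod6 was higher in MGv (0.0859, 0.0332 and 2.34 CPM in dLG, VPM and MGv, adjusted p = 0.0182 against dLG and 0.00849 against VPM), and Tbr1 was lower there (1.38, 1.8 and 0.234 CPM, adjusted p = 0.0425 and 0.0206). The 5 habenular markers summed to 17.6 to 44.3 CPM in dLG, 20.8 to 27.7 CPM in VPM and 26.3 to 49.1 CPM in MGv. Of these, Gng8 was higher in MGv (1.93, 5.04 and 21.4 CPM, adjusted p = 0.000778 and 0.0155) and Chrna3 was lower in MGv than in dLG (30, 18.1 and 12.4 CPM, adjusted p = 0.0403), while the habenular gene Gpr151 averaged at most 0.125 CPM in a nucleus. The part of such cells in the members' differences was not tested.

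At a low level, 4 further members differed, with fewer than 5 CPM in every nucleus. Isl1, a LIM homeodomain factor of motor, sensory and hypothalamic neurons, had no read in any dLG library, 54 reads in VPM and 36 reads in MGv. Its values were 0.742, 1.21, 0.62 and 0 CPM in VPM and 0.751, 1.49 and 0.875 CPM in MGv. With 3 counts over the dLG libraries as the floor, it was at least 17.4-fold higher in VPM and at least 27.1-fold higher in MGv (adjusted p = 0.0242 and 0.0105). VPM replicate 4, at 0, overlapped dLG, and no MGv library did. With no read in dLG, Isl1 passed the filter on low counts only through VPM and MGv, where it was higher. Its adjusted p values and fold floors therefore describe these reads and do not test the difference.

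Barhl2, a homeodomain factor of diencephalic and spinal neurons, had 46 reads in dLG and 1 in VPM. It measured 0.731, 0.129, 0.708 and 0.859 CPM in dLG and 0.301, 0 and 0 CPM in MGv. The ratio of dLG to VPM from pooled reads was 47.6, with an exact 95% interval of 8.14 to 1922 that covers counting error only (adjusted p = 0.0199 in the fit). Barhl2 passed the filter on low counts only through dLG, the nucleus where it was high. Its adjusted p and interval therefore describe these reads and do not test the difference. Pax6, a paired-type factor of progenitors and prethalamic cells, had 66 reads in VPM and 3 in MGv, a ratio of 9.41 with an interval of 3.08 to 46.8 (adjusted p = 0.0673). Its values were 0.278, 1.21, 0.682 and 0.999 CPM in VPM and 0.0751, 0 and 0.194 CPM in MGv, and they did not overlap. The call was lost without MGv replicate 1 or 2 (adjusted p = 0.178 to 0.18). Pax6 passed the filter only through VPM, where it was high, so its adjusted p and interval are a description as well.

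Pou3f2 (BRN2, a close relative of Pou3f3) measured 0.67, 0.473, 0.436 and 0.143 CPM in dLG and 1.35, 0.965 and 6.22 CPM in MGv. The difference of -2.71 ± 0.77 on the log2 scale (SE, adjusted p = 0.0331) rested on MGv replicate 3, without which it was -1.43 (adjusted p = 0.328). The same library was the highest for Pou3f4, at 7 CPM against 1.13 to 2.72 CPM in the other 10 libraries, and no contrast of Pou3f4 passed.

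The other members give a picture of absence at this depth. Of the 29 members that were not tested, none exceeded 0.952 CPM or 22 counts in any library. Summed over the family, the 6 Iroquois genes reached at most 0.62 CPM in a library, the 2 Nkx genes at most 0.439 CPM and the 4 Dlx genes, factors of GABAergic forebrain neurons, at most 1.56 CPM. The 9 LIM homeodomain genes other than Isl1 were not tested, and the whole family of 10 summed to at most 2.73 CPM. Pou4f1 (BRN3A, a habenular factor) and Otx2 passed the filter but stayed under 1 CPM in every library and did not differ in any contrast that was run.

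LIM cofactors and LIM-only proteins form complexes with LIM homeodomain proteins or compete for them. All 10 genes of that list were tested, and 3 passed for dLG against VPM, 3 for dLG against MGv and 5 for VPM against MGv. Of all genes tested, 10.7%, 16.1% and 19% passed in these contrasts. Ldb2, a cofactor that joins LIM homeodomain proteins, had means of 24.8 ± 14.4 CPM for dLG, 31.5 ± 9.83 CPM for VPM and 276 ± 33.9 CPM for MGv (SD; n = 4, 4 and 3, as for the genes below). Against MGv the log2 fold change was -3.47 ± 0.36 (SE) for dLG (adjusted p = 3.02e-05) and -3.13 ± 0.35 for VPM (adjusted p = 6.25e-05). Ssbp2, which stabilises LDB proteins, stepped up from 14.4 ± 2.49 CPM in dLG through 34.9 ± 4.63 CPM in VPM to 80.4 ± 27.8 CPM in MGv, and all 3 contrasts passed (adjusted p = 0.00143, 8.72e-06 and 0.00209). Lmo4, a LIM-only protein, was instead high in VPM, at 72.5 ± 13.8 CPM against 15 ± 1.08 CPM in dLG and 11.1 ± 2.79 CPM in MGv (adjusted p = 4.79e-06 and 2.76e-06). Lmo2 was at 3.47 ± 1.24, 5.57 ± 1.21 and 11.6 ± 0.58 CPM in dLG, VPM and MGv, higher in MGv than in dLG (adjusted p = 0.00139) and than in VPM (adjusted p = 0.0276). The latter was lost in the 8 libraries outside the 3 that stand apart.

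Of 41 other homeobox genes, 12 were tested and 7 passed in at least 1 contrast, as did 28.3% of all genes tested. There were 2 for dLG against VPM, 7 for dLG against MGv and 6 for VPM against MGv. Of all genes tested, 10.7%, 16.1% and 19% passed in these contrasts. Lhx2, Lhx9 and Gbx2 were among the 7. The thalamic factors Lhx2 and Gbx2 and the DNA-binding-deficient Hopx were highest in MGv, and Zhx2 was lowest there. Gbx2, which also drives the Cre of the reporter, was at 29.4 ± 16.1 CPM in dLG, 35.3 ± 9.41 CPM in VPM and 304 ± 30.3 CPM in MGv. Zhx2, a zinc finger and homeodomain repressor, was at 7.03 ± 0.776 CPM in dLG, 5.26 ± 1.85 CPM in VPM and 0.335 ± 0.299 CPM in MGv, with log2 fold changes against MGv of 4.42 ± 0.49 (SE, adjusted p = 4.61e-05) and 4.01 ± 0.48 (adjusted p = 9.97e-05). Its direction was that of Zeb1, Zfhx4 and Satb1.

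Polycomb and Trithorax proteins keep patterning genes off or on, and all 16 genes of that list were tested. Between dLG and VPM, 2 differed, and 3 differed in each contrast with MGv, shares close to those of all genes tested (10.7%, 16.1% and 19%). The changes were below 1 on the log2 scale. Ezh2, which methylates histone H3, was at 40.2 ± 4.13 CPM in dLG, 25.1 ± 6.3 CPM in VPM and 37.3 ± 8.28 CPM in MGv, with a log2 fold change of 0.68 ± 0.19 (SE) for dLG against VPM (adjusted p = 0.0462). Jarid2, which recruits it, was at 29.6 ± 3.82, 25.1 ± 4.99 and 43.7 ± 9.15 CPM, with -0.8 ± 0.2 for VPM against MGv (adjusted p = 0.0169). The first call was lost without dLG replicate 3 or 4 or VPM replicate 1 or 2 (adjusted p 0.114 to 0.164), and the second without MGv replicate 3 (adjusted p = 0.101).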

How the data were processed

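RNA-seq was made from tdTomato-sorted neurons in 4 dLG, 4 VPM and 3 MGv libraries. Per the labels and methods of the study, the authors amplified cDNA with a SMARTer Ultra Low kit (v4), sequenced single reads of 50 bases, trimmed them (Trim Galore 0.6.1, cutadapt 2.3), aligned them with STAR 2.7.0d to GRCm38 and counted them in Ensembl genes with featureCounts (Subread 1.6.4). The authors deposited these raw counts, without normalization or filtering. Use of strand and the treatment of multiply aligned reads are not given in the sources used here. Each library held 4 pooled brains, and the study names libraries of a nucleus as biological replicates.

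Groups came from the titles. Genes were named through GENCODE M21 (GRCm38), positions are 1-based, and its transcripts gave the homeobox sequences, found by the conserved tryptophan, phenylalanine, asparagine and arginine of the third helix. All 11 libraries entered 1 edgeR 4.0.16 quasi-likelihood fit (R 4.3.3, filterByExpr, TMM, no covariate), with 3 two-sided contrasts and Benjamini-Hochberg adjustment over the 15907 genes tested (threshold 0.1); the study used DESeq2. The SE of a log2 fold change is its size over the root of F, and the common biological CV was 28.2%. The fits were also run on simulated counts, scored for dLG against MGv only. These were drawn independently for each library, with no difference of the 3 libraries that stand apart. They do not bear on the single calls given here. A member is given by library if it passed in at least 1 contrast and its highest nucleus had a mean of at least 5 CPM; Pbx4, Zfhx3, Pou3f4 and the members at lower levels were chosen for mention once their values were known. Of each list of related genes, up to 4 with the largest change that passed could be named. The members and lists were chosen with earlier results of these data known. Floors and intervals cover counting error only, since PCR reads without molecular identifiers are not independent molecules. Alternatives were DESeq2 1.42.0, DESeq2 size factors, no filter, a minimum of 10 counts per library throughout, the replicate block, only the nuclei compared, thinned counts, an adjusted p under 0.05, a covariate for the 3 libraries that stand apart, the 8 others alone, and each library left out.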

Additional observations from a re-analysis of the deposited data

Results flagged for a closer look

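Pbx3 in VPM was singled out because 1 library lay far from the other 3. VPM replicate 3 measured 0.62 CPM and its nearest neighbour 3.76 CPM, a gap of 0.958 of the range of the 4 libraries, above Dixon's 95% critical value for 4 samples. Among 22 sets of 4 libraries examined this way, 1 was flagged, and chance flags about 1 in 20. VPM replicate 3 is 1 of the 3 libraries with low Hspa8. Its part in the Pbx3 value was not tested, and Pbx3 was higher in MGv than in VPM with and without it.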

How the results depend on the processing

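No call of a member changed direction under any alternative that gave a value. Of 26 calls of members, 26 were kept by DESeq2, by DESeq2 size factors and with a covariate for the 3 libraries that stand apart. In the 8 other libraries 24 were kept, with no filter 22, with the replicate block 21, at an adjusted p under 0.05 21, with only the nuclei compared 22 of 24, with thinned counts 19 of 22 and with at least 10 counts in every library 21 of 21. The number of members differing between dLG and VPM fell from 9 to 5 of 21 tested with only the nuclei compared and to 4 of 19 with thinned counts, while all genes passing went from 1704 to 1723 and 1489. On leaving out 1 library it ranged from 2 (without dLG replicate 1) to 9; between dLG and MGv it ranged from 7 to 10 and between VPM and MGv from 7 to 9. In the 8 libraries outside the 3 that stand apart, 11, 11 and 9 members differed in the 3 contrasts; Barhl2, Meis1, Pbx4, Pou2f1 and Zfhx3 gained calls and Pax6 and Satb1 lost them (VPM against MGv), and over all genes the dLG against VPM count rose from 1704 to 2618. Leaving out VPM replicate 1 or 2 lowered it to 1101 or 1093.

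Replicate numbers are shared between nuclei but nothing says that they mark the same brains. Deviations of same-numbered libraries correlated at -0.2 to 0.48 (mean 0.016, 10 pairs), other pairs at a mean of -0.005 (30 pairs), so the numbers were not taken as pairs. With the number as a block, 6, 7 and 8 members differed in place of 9, 8 and 9 (9.2%, 13.6% and 16.9% of all genes), and the calls lost were Meis3, Pou3f3 and Pou6f1 (dLG against VPM), Pou3f2 (dLG against MGv) and Satb1 (VPM against MGv). By CPM in place of TPM, 9 of the 10 highest members were the same. MGv libraries were the shallowest (10.2 to 13.2 M), which limits members under 1 CPM there most.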
